A study of Mus musculus with 16 samples.

Results

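The 8 arrays of 3T3-L1 cells kept in dexamethasone (dex) were compared between times, 4 biological replicates at 36 h against 4 at 2 h, out of 16 arrays in the study. 3T3-L1 is a mouse fibroblast line committed to the fat cell lineage, and dex is a synthetic glucocorticoid that forms part of the usual cocktail for turning such cells into adipocytes. The other 8 arrays hold cells given the solvent DMSO alone, 4 at 36 h and 4 at 2 h, and all groups share the same cell line and no other agent is named in the labels. Members were chosen by the sample titles, which give treatment, time and replicate number. Replicates are named as biological, and the labels say nothing of culture density, dose or medium.

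Dex enters the cell and binds the glucocorticoid receptor, a transcription factor that then moves to the nucleus, where it raises some genes through DNA elements it binds and lowers others, many of them inflammatory. The first genes to respond include feedback regulators of the receptor itself and of kinase signalling. In preadipocytes the hormone also induces the early adipogenic factors C/EBP-beta and C/EBP-delta, while later steps of fat cell formation depend on Pparg and on loss of the fibroblast's contractile and matrix programme.

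Each array reported, for 38467 probes, the log2 ratio of the sample in Cy5 to a pool of the samples in Cy3. Of these, 29456 probes named 1 gene each, for 19640 genes in all, and a gene is quoted here by 1 probe. A ratio to a pool gives no level, so values can be compared between arrays for a gene but not between genes. Array medians lay between -0.0106 and 0.00832, and the correlation across probes was 0.16 to 0.794 among the dex 36 h arrays and 0.12 to 0.383 among the dex 2 h arrays. DMSO 2 h replicate 4 stood apart, with a mean correlation of -0.104 with its own group. Each time was a separate set of arrays, so time and array batch cannot be told apart.

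What a difference between the times measures depends on the pool, and the sources used here do not say whether 1 pool served all arrays or each time had its own. The ratios carried almost no difference between the times that dex and DMSO shared: the mean ratio over the 8 arrays of a time differed at least 2-fold for 7 of 19640 genes, while 273 genes had a dex effect of that size at 36 h. In 96 genes the ratio of dex to DMSO was at least 2-fold higher at 36 h and under 0.3 on the log2 scale at 2 h. Their median log2 ratio was 0.576 in dex 36 h and 0.0659 in dex 2 h, and -0.797 in DMSO 36 h and -0.035 in DMSO 2 h, with DMSO lower at 36 h than at 2 h in 96 of 96. In the 36 genes with the opposite late effect, DMSO was higher at 36 h in 36 of 36. Genes with at least a 2-fold effect at 2 h and under 0.3 at 36 h were less uniform. Of 40 such rises, DMSO was higher at 36 h in 40, and dex 36 h lay above dex 2 h in 5. Of 40 such falls, DMSO was lower at 36 h in 32 and higher in 8. All of these sets were picked by values of the same arrays, so the counts are a description. With a pool of equal parts dex and DMSO RNA of the same time, the dex effect would fix the ratios of both groups and the log2 ratio could not exceed 1. The 3 genes with a 36 h effect of at least 4 on the log2 scale had dex 36 h means of 0.797 to 0.979. However, 21 genes had a dex 36 h mean over 1 and 12 a dex 2 h mean over 1, among them Fam221b (2.44) and Lcn2 (1.32) in dex 36 h and Glul (1.46) and Dusp1 (1.29) in dex 2 h, so equal parts did not describe every gene. Over all genes with at least a 2-fold effect, the group means lay a median of 0.14 from the value that such a pool predicts in dex 36 h and 0.25 in dex 2 h. With a pool per time, dex 36 h minus dex 2 h would not be a change of RNA between the times. The words higher and lower therefore refer to the ratio to the pool below, and the change of the dex effect is given beside it, that is dex minus DMSO at 36 h less dex minus DMSO at 2 h, in which the pool of each time cancels.

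Under continued dex, 463 genes passed between the times (limma, Benjamini-Hochberg adjusted p under 0.05), which was 2.36% of the 19640 tested. The ratio was higher at 36 h for 200 and lower for 263, and 22 of them differed by at least 2-fold, 10 higher and 12 lower. The median over all genes was 0.0036 on the log2 scale. In 306 of the 463 genes, or 66.1%, the dex effect also changed between the times in the same direction, and in 0 in the opposite one. The change of the dex effect contains this same dex difference, so agreement in direction is largely built in. In DMSO 243 genes passed, or 1.24% (0.26% higher and 0.978% lower). The DMSO arrays are not shared with the dex course, and of the 86 genes that passed in both, 80 went opposite ways and 6 the same way, which was 1.3% of the dex genes and 2.47% of the DMSO genes. With a pool of equal parts dex and DMSO RNA of each time, opposite directions would be built in, so these counts are a description. The counts rested on few arrays, since there were 69 genes higher and 93 lower without dex 36 h replicate 1, 115 and 141 without dex 36 h replicate 3, and 86 to 116 and 113 to 154 without dex 2 h replicate 1, 3 or 4 (for the lower genes also replicate 2). Without DMSO 2 h replicate 1 there were 316 and 417, and without DMSO 2 h replicate 4 there were 483 lower.

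**Figure D1:**
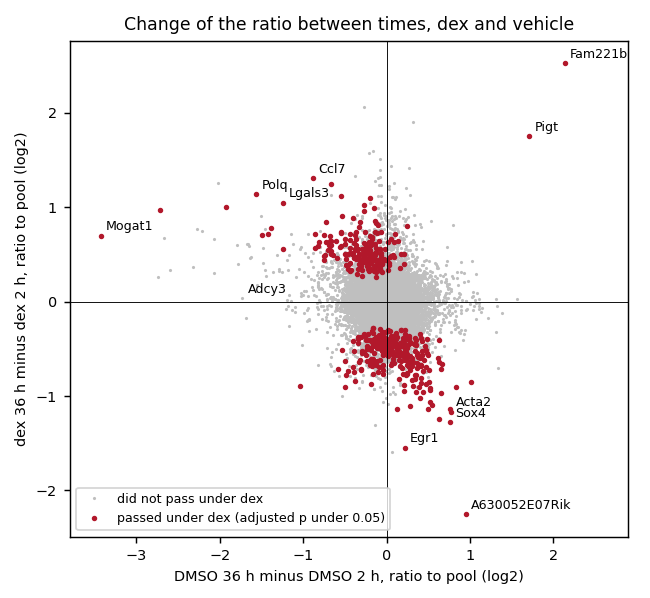
Each point is 1 of 19640 genes, with the change of its log2 ratio between 36 h and 2 h in dex on the vertical axis and in DMSO on the horizontal one; red points passed under dex. Fam221b and Pigt sit high on both axes, whereas Mogat1, Polq and Lgals3 lie at upper left, with DMSO values of -3.43, -1.57 and -1.24.

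Both of the largest positive values were shared with the vehicle. Fam221b, an uncharacterised gene, had log2 ratios of 2.92, 2.83, 1.14 and 2.87 in dex 36 h, against 0.17, -0.44, -0.13 and 0.06 in dex 2 h, and was 2.53 ± 0.44 higher (SE, n = 4 arrays per group, limma adjusted p = 0.00806). In DMSO it was 2.13 ± 0.44 higher, and its change of the dex effect was 0.39 ± 0.62 (adjusted p = 0.827). Pigt, a subunit of the enzyme that attaches GPI anchors, was 1.75 ± 0.32 higher in dex and 1.71 ± 0.32 higher in DMSO. Of the 4 other Pigt probes 2 passed under dex in the same direction, and the differences of the 4 were -0.261 to 1.74. In both, the difference between the times did not pass as unequal in dex and DMSO. The other 20 genes of at least 2-fold passed for the change of the dex effect too, which contains the same dex difference.

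The early response was defined as the 131 genes that passed for dex against DMSO at 2 h with at least a 2-fold effect, 103 raised and 28 lowered. At 2 h 3.12% of all genes passed, 1.91% higher and 1.21% lower. The arrays at 36 h share none with that contrast, and against DMSO at 36 h 94 of the 131, or 71.8%, still passed in the same direction, where 7.96% of all genes did. This held for 78 of the 103 rises and 16 of the 28 falls, and 0 of the 131 passed the other way. The effect was larger at 36 h for 41 of 103 rises and 4 of 28 falls. Across all 19640 genes the effects at 36 h and 2 h correlated with r = 0.32 (rho = 0.2), as a description across genes that are not independent.

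The course of each early gene was sorted by whether it passed for a change between times. A gene that passed in the direction of its early effect grew, 1 that passed against it faded, and 1 whose 95% interval lay within 1.5-fold of no change held; the rest were unresolved. The 2 h arrays define the early genes and enter the change as well, so these counts are a description. By the dex effect 13 grew, 14 held, 43 faded and 61 were unresolved. By the ratio under dex alone 0 grew, 41 held, 32 faded and 58 were unresolved. Of the 13 that grew by the effect, 10 were unresolved and 3 held by the ratio, and of the 43 that faded 31 also faded by the ratio. Rises and falls differed in these counts: 27 of 103 rises and 16 of 28 falls faded by the effect, and 13 rises and 0 falls grew. Without dex 2 h replicate 3 there were 8 that grew by the effect, and the faded by ratio were 21 without dex 36 h replicate 1 and 51 without DMSO 2 h replicate 1, the early genes being chosen anew each time.

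**Figure D2:**
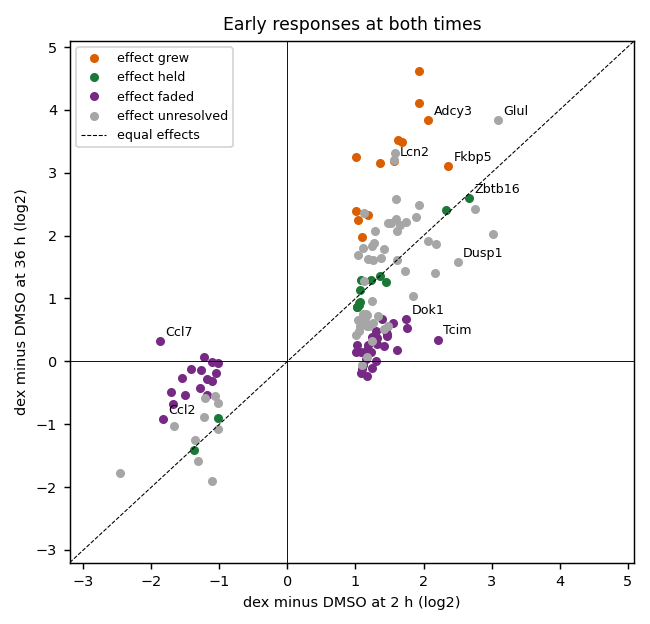
The 131 early genes are plotted by their dex effect at 36 h (vertical) and at 2 h (horizontal), both as log2 of dex over DMSO, and coloured by the class of the change in effect; the dashed line marks equal effects. Adcy3, Fkbp5 and Lcn2 lie above the line, Zbtb16 on it, and Tcim, Dok1, Ccl2 and Ccl7 have moved toward 0 at 36 h.

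Among the genes whose dex effect grew was Fkbp5, an HSP90 co-chaperone that limits hormone binding by the receptor. Its log2 ratios were 1.0, 1.16, 0.78 and 1.04 in dex 36 h, against 0.72, 0.94, 0.90 and 0.80 in dex 2 h, with -2.30, -2.15, -1.93 and -2.05 in DMSO 36 h and -1.20, -1.75, -1.68 and -1.46 in DMSO 2 h. The dex groups overlapped and the DMSO groups did not. The dex effect was 3.11 ± 0.12 at 36 h and 2.36 ± 0.12 at 2 h, a change of 0.74 ± 0.17 (adjusted p = 0.032), while the ratio under dex differed by 0.15 ± 0.12 (adjusted p = 0.642).

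Lcn2, which encodes the secreted iron-siderophore carrier lipocalin 2, had ratios of 1.32, 1.33, 1.58 and 1.06 in dex 36 h, against 1.02, 1.09, 0.92 and 0.96 in dex 2 h. That difference of 0.33 ± 0.26 did not pass (limma adjusted p = 0.648). In DMSO the ratios were lower at 36 h, by -1.29 ± 0.26, and the DMSO 36 h arrays were spread, at -2.5, -2.5, -1.0 and -1.4. Its effect was 3.19 ± 0.26 at 36 h and 1.57 ± 0.26 at 2 h (change 1.62 ± 0.37, adjusted p = 0.0294). Adcy3, an adenylyl cyclase that makes cyclic AMP, had an effect of 3.84 ± 0.13 at 36 h and 2.07 ± 0.13 at 2 h on the quoted probe. The other 2 probes of Adcy3 showed no such early effect, with values of -0.171 and 0.0325 at 2 h. The largest growth was that of Zcchc14, named after its values were seen, with effects of 4.63 ± 0.13 at 36 h and 1.94 ± 0.13 at 2 h. Nampt, the enzyme that salvages nicotinamide for NAD synthesis and also chosen after its values were seen, had effects of 2.40 ± 0.13 at 36 h and 1.01 ± 0.13 at 2 h. The ratio differences under dex of Adcy3 (0.04), Zcchc14 (0.37) and Nampt (0.51) did not pass. In DMSO the differences of these genes were -1.73, -2.32 and -0.88. Over the 13 genes the median effect was 3.19 at 36 h and 1.57 at 2 h.

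Zbtb16, a zinc finger transcription factor also called PLZF, held. It had ratios of 1.05, 0.89, 1.14 and 0.84 in dex 36 h and of 0.86, 1.14, 1.12 and 1.06 in dex 2 h, which overlapped, and the DMSO arrays lay between -1.80 and -1.45. Its dex effect was 2.60 ± 0.10 at 36 h and 2.67 ± 0.10 at 2 h, with a change of -0.07 ± 0.14. Rhob, a small GTPase of the actin cytoskeleton and endosomes, likewise had effects of 2.40 ± 0.09 at 36 h and 2.32 ± 0.09 at 2 h, and its 4 dex 36 h ratios of 1.08 to 1.28 all lay above the dex 2 h ratios of 0.85 to 0.96 (0.25 ± 0.09, adjusted p = 0.198). Its other probe gave -0.261, with the same 2 h effect of 2.32, and did not pass either.

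The early adipogenic factor Cebpb was in the same class. Its ratios were 0.50, 0.37, 0.59 and 0.36 in dex 36 h, against 0.62, 0.60, 0.77 and 0.86 in dex 2 h, so that all of the 36 h values were the lower ones, but the difference of -0.26 ± 0.10 did not pass (adjusted p = 0.257). The dex effect on Cebpb was 0.87 ± 0.10 at 36 h and 1.02 ± 0.10 at 2 h. Cebpd, its partner in early adipogenesis, had an early effect just short of 2-fold and so was not among the 131. Its effects were 0.87 ± 0.13 at 36 h and 0.93 ± 0.13 at 2 h. Klf9, a Krüppel-like factor chosen after its values were seen, also held, with effects of 0.94 ± 0.12 at 36 h and 1.07 ± 0.12 at 2 h.

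Several of the best known receptor targets were unresolved. Tsc22d3, the leucine zipper protein GILZ, had an effect of 2.43 ± 0.24 at 36 h and 2.76 ± 0.24 at 2 h (2 h effects of -0.0683 to 1.11 on its other 3 probes), and Glul, glutamine synthetase, 3.84 ± 0.21 at 36 h and 3.09 ± 0.21 at 2 h. Dusp1, a phosphatase that switches off MAP kinases, had ratios of 1.0, 0.66, 1.23 and 0.23 in dex 36 h, all below those of 1.29, 1.29, 1.34 and 1.26 in dex 2 h. Its difference of -0.51 ± 0.19 did not pass (adjusted p = 0.233), nor did that of Per1, a circadian repressor (-0.45 ± 0.16, adjusted p = 0.216). Myc, a growth-promoting transcription factor, had effects of 1.80 ± 0.15 at 36 h and 1.10 ± 0.15 at 2 h (change 0.69 ± 0.21, adjusted p = 0.107). The receptor gene Nr3c1 had a ratio difference of -0.00 ± 0.12 under dex, with dex 36 h arrays at -0.65 to -0.36 and dex 2 h arrays at -0.60 to -0.43.

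**Figure D3:**
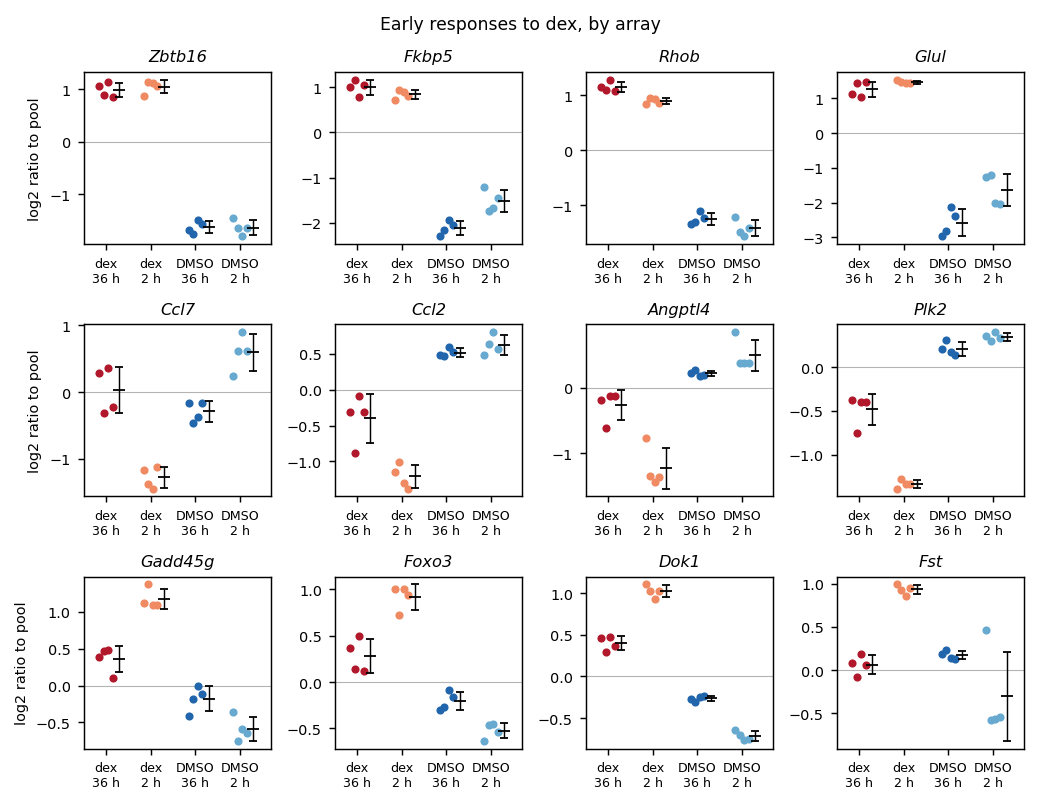
Each panel shows 1 early gene, with the log2 ratio to the pool of every array as a point and the group mean with its SD as a bar, for dex 36 h, dex 2 h, DMSO 36 h and DMSO 2 h. The top row shows genes whose dex arrays stay near 1 at both times, the middle row early falls with ratios closer to 0 at 36 h, and the bottom row early rises that do the same.

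Of the 16 early falls that faded, the chemokine gene Ccl7 had the largest change of the dex effect, 2.19 ± 0.23. Ccl7, which attracts monocytes, had ratios of 0.28, -0.31, 0.36 and -0.22 in dex 36 h, against -1.17, -1.38, -1.45 and -1.11 in dex 2 h. The groups did not overlap, as for 14.5% of all genes, and the difference was 1.31 ± 0.16 (adjusted p = 7.55e-04). The dex effect was 0.32 ± 0.16 at 36 h (adjusted p = 0.285) and -1.87 ± 0.16 at 2 h, so that a 3.66-fold lower value at 2 h was no longer seen at 36 h. In DMSO the ratio of Ccl7 was lower at 36 h by -0.88 ± 0.16.

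Ccl2, the monocyte chemoattractant MCP-1, kept part of its early effect. It had ratios of -0.31, -0.89, -0.08 and -0.31 in dex 36 h, against -1.15, -1.02, -1.30 and -1.38 in dex 2 h (0.81 ± 0.14 higher, adjusted p = 0.00801). Against DMSO it remained lower at 36 h, by an effect of -0.92 ± 0.14 (adjusted p = 5.33e-04), against -1.83 ± 0.14 at 2 h. The neutrophil chemokine gene Cxcl5, chosen after its values were seen, had effects of -1.78 ± 0.23 at 36 h and -2.45 ± 0.23 at 2 h and did not pass for a change (adjusted p = 0.39).

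Angptl4, a secreted inhibitor of lipoprotein lipase that is raised by the receptor in adipose tissue, was among the early falls here. Its ratios were -0.18, -0.60, -0.12 and -0.13 in dex 36 h and -0.76, -1.34, -1.44 and -1.36 in dex 2 h. The 36 h arrays were all higher (0.97 ± 0.15, adjusted p = 0.00473). The other probe of Angptl4 gave 0.557 and did not pass. Plk2, a stress-responsive polo-like kinase, was at -0.37, -0.75, -0.40 and -0.40 in dex 36 h and at -1.39, -1.27, -1.33 and -1.33 in dex 2 h (0.85 ± 0.09, adjusted p = 1.66e-04). Cxxc5, a CXXC zinc finger gene, differed by 1.10 ± 0.12, and its dex effect was -0.26 ± 0.12 at 36 h and -1.55 ± 0.12 at 2 h. The cytokine signalling suppressor Socs3 (effect -0.30 ± 0.13 at 36 h and -1.11 ± 0.13 at 2 h) and the iron exporter gene Slc40a1 (-0.12 ± 0.07 and -1.41 ± 0.07) faded too, and both were named after their values were seen.

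Among the 27 early rises that faded was Gadd45g, a stress sensor that slows the cell cycle. It had ratios of 0.39, 0.47, 0.48 and 0.10 in dex 36 h, against 1.12, 1.37, 1.09 and 1.09 in dex 2 h, and was lower by -0.81 ± 0.12 (adjusted p = 0.00211). Its dex effect was 0.54 ± 0.12 at 36 h and 1.75 ± 0.12 at 2 h, and it passed at both times. Foxo3, a transcription factor of stress resistance and cell cycle exit, had ratios of 0.36, 0.14, 0.50 and 0.12 in dex 36 h and 1.0, 0.72, 1.01 and 0.94 in dex 2 h (-0.64 ± 0.10, adjusted p = 0.00391). The other 3 probes of Foxo3 gave differences of -0.332 to 0.136, and none passed.

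Dok1, an adaptor that damps tyrosine kinase signalling, was lower by -0.62 ± 0.07 (adjusted p = 3.63e-04), and its other 2 probes also passed, at -0.664 and -0.52. For Dok1 the dex effect was 0.67 ± 0.07 at 36 h and 1.74 ± 0.07 at 2 h. Fst, the activin antagonist follistatin, had ratios of 0.08, -0.07, 0.19 and 0.06 in dex 36 h and 0.99, 0.93, 0.86 and 0.95 in dex 2 h. Its effect was -0.11 ± 0.18 at 36 h and 1.24 ± 0.18 at 2 h. The DMSO 2 h arrays of Fst were at 0.46, -0.57, -0.56 and -0.54, with replicate 1 apart from the rest. Tcim, a positive regulator of Wnt signalling, had an effect of 0.34 ± 0.16 at 36 h and 2.21 ± 0.16 at 2 h (change -1.86 ± 0.23, adjusted p = 2.13e-04). Its ratio under dex differed by -0.85 ± 0.16, and by -0.615 on its other probe, which did not pass. Over the 27 rises that faded the median effect was 0.256 at 36 h and 1.29 at 2 h, and over the 16 falls -0.266 at 36 h and -1.28 at 2 h.

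Sox4, a transcription factor of progenitor cells, changed sides. It had ratios of -0.60, -1.09, -0.81 and -1.03 in dex 36 h, against 0.14, 0.58, 0.42 and 0.45 in dex 2 h. The groups were fully apart and differed by -1.28 ± 0.12 (adjusted p = 8.35e-05), with -1.15 on its other probe, which also passed. In DMSO the ratios were 0.13, 0.19, 0.28 and 0.15 at 36 h and -0.42, -0.61, -0.74 and -0.51 at 2 h. The dex effect was -1.07 ± 0.12 at 36 h (adjusted p = 2.18e-05) and 0.97 ± 0.12 at 2 h (adjusted p = 1.22e-04), a change of -2.04 ± 0.17. The 2 h effect on Sox4 was just short of 2-fold, so it was not among the early genes counted above.

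Genes that differed only later were those at least 2-fold apart between dex 36 h and dex 2 h that also passed for the change of the dex effect and had no early effect, meaning an adjusted p of at least 0.05 and under 0.5 on the log2 scale at 2 h. There were 13 of them, or 0.0662% of genes, 4 higher and 9 lower, and in 7 the DMSO ratio passed in the opposite direction. By the dex effect alone, with at least 2-fold at 36 h, 120 genes (0.611%) met the rule, 82 higher and 38 lower, and these included all 13. By ratio there was 1 higher gene without dex 36 h replicate 3, there were 2 without dex 36 h replicate 1 or dex 2 h replicate 2, and there were 8 without dex 36 h replicate 4. By the dex effect, the DMSO ratio was lower at 36 h than at 2 h in 82 of the 82 higher genes. It was higher at 36 h than at 2 h in 38 of the 38 lower ones. Both rules use the DMSO arrays, so these directions are partly built in and are a description.

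Egr1, an immediate early transcription factor of growth factor signalling, had ratios of -1.41, -1.63, -1.39 and -0.76 in dex 36 h, against 0.12, 0.57, 0.21 and 0.11 in dex 2 h. It was lower by -1.55 ± 0.16 (adjusted p = 2.00e-04), and in DMSO its difference was 0.22 ± 0.16 (adjusted p = 0.651). The dex effect on Egr1 was -1.63 ± 0.16 at 36 h and 0.13 ± 0.16 at 2 h. Here the low values were those of the dex 36 h arrays alone.

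Acta2, smooth muscle actin and a marker of contractile fibroblasts, was one of the late falls of a contractile gene. Its promoter is shown because it holds serum response elements, the sites through which contractile genes are known to be driven by serum response factor. The part of these sites in the values here was not tested. The window runs from 250 bases before to 50 bases after the start of the gene (RefSeq, GRCm38.p6, chr19:34255324-34255623, minus strand, written 5′ to 3′ along the gene). Capitals mark the 2 CArG-like boxes found, the letters CC, then 6 bases of A or T with at most 1 G or C, then GG, searched on both strands; 9.98% of 32851 promoter windows hold at least 1.
Acta2 promoter: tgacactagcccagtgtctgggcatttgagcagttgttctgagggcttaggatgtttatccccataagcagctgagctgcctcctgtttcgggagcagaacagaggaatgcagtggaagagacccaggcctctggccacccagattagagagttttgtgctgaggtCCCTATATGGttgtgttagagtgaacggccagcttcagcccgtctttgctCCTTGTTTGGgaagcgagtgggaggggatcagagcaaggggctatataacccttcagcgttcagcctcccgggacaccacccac
The boxes lie at positions -84 to -75 and -34 to -25 relative to the start. Of 67 genes named by rule, 46 had a promoter in the table, and 7 of them held such a box, while the receptor's palindromic element, AGAACA, 3 of any base and TGTTCT, was in 0 of them and in 3 of the 32851 windows. No match says only that these letters are not in this window.

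The ratios of Acta2 were -1.11, -1.35, -0.86 and -0.53 in dex 36 h and 0.27, 0.10, 0.14 and 0.32 in dex 2 h, with 1.04, 0.85, 1.11 and 0.93 in DMSO 36 h and 0.22, 0.28, 0.20 and 0.16 in DMSO 2 h. Thus both 2 h groups lay together, and at 36 h dex was the lowest group and DMSO the highest. The ratio was lower by -1.17 ± 0.13 under dex (adjusted p = 4.01e-04), and the dex effect was -1.95 ± 0.13 at 36 h and -0.01 ± 0.13 at 2 h. The other 3 probes of Acta2 gave smaller differences of -0.278 to -0.047 under dex, and none passed. Tpm1, a tropomyosin that stabilises actin filaments, was at -1.33, -1.22, -1.51 and -1.01 in dex 36 h. In dex 2 h it was at -0.28, -0.18, -0.13 and -0.11, a difference of -1.09 ± 0.09 (adjusted p = 5.37e-05). The other probe of Tpm1 gave -0.675 and did not pass.

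Other genes with lower ratios at 36 h encode matrix or secreted proteins. Col12a1, a collagen that binds to the surface of fibrils, had ratios of -1.48, -1.28, -1.63 and -1.41 in dex 36 h, against -0.53, -0.30, -0.30 and -0.12 in dex 2 h (-1.14 ± 0.10, adjusted p = 8.17e-05), though its other probe gave -0.268. Sfrp2, a secreted modulator of Wnt signalling, was at -1.37, -1.38, -1.40 and -0.79 in dex 36 h and at -0.17, -0.13, -0.12 and -0.11 in dex 2 h (-1.10 ± 0.13, adjusted p = 5.07e-04). Postn, the matricellular protein periostin, was lower by -0.97 ± 0.12 and by -1.17 on its other probe, which passed as well. Outside the matrix, Serpinb3a, a serine protease inhibitor gene (-1.25 ± 0.12), and Basp1, a membrane-bound growth cone protein (-1.14 ± 0.13), were lower as well. The lowest difference of all 19640 genes that passed was that of A630052E07Rik, a transcript with no gene name (-2.25 ± 0.21). Serpinb3a and Basp1 each had a second probe that did not pass, at 0.0634 and -0.164.

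**Figure D4:**
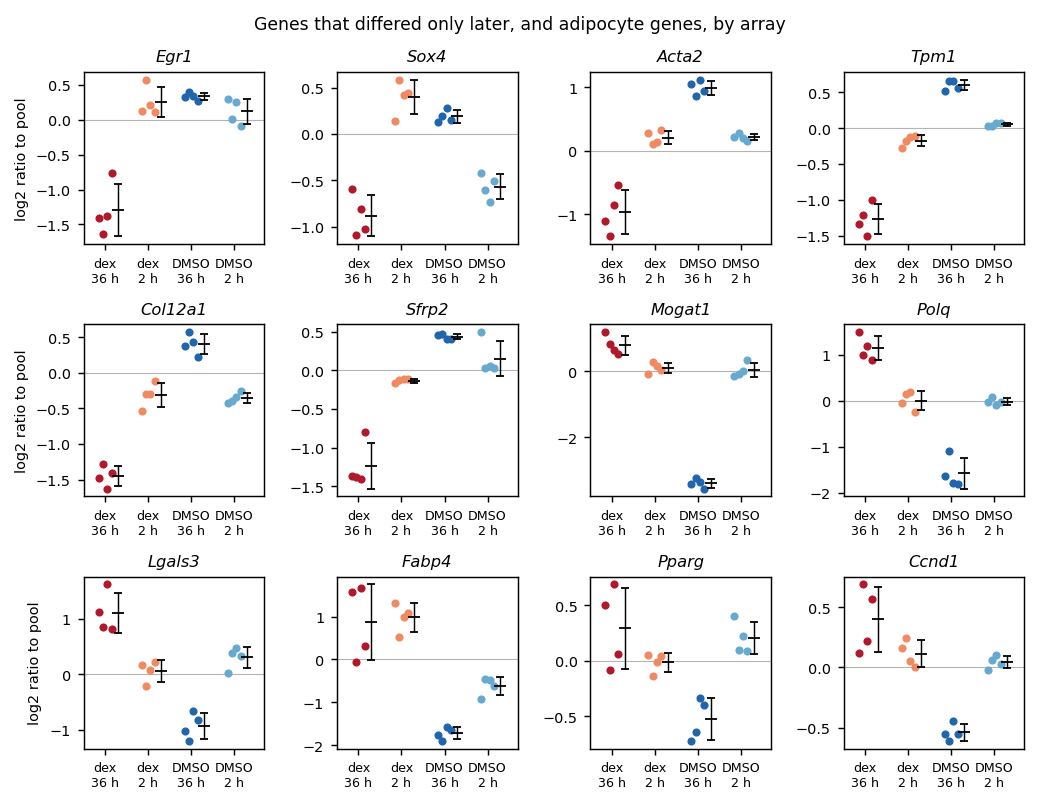
Each panel shows the log2 ratio to the pool of every array for 1 gene, with the group mean and SD as a bar, for dex 36 h, dex 2 h, DMSO 36 h and DMSO 2 h. The 2 h groups lie near each other for Acta2, Col12a1, Mogat1 and Polq, while the 36 h groups lie on opposite sides, and for Fabp4 and Pparg the 4 dex 36 h arrays split into 2 high and 2 low values.

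The 82 genes whose dex effect was higher only at 36 h were led by a lipid enzyme. Mogat1, an enzyme that joins fatty acids to monoacylglycerol, had ratios of 1.19, 0.83, 0.65 and 0.52 in dex 36 h, against -0.08, 0.27, 0.15 and 0.05 in dex 2 h, a difference of 0.70 ± 0.14 (adjusted p = 0.0216) that was lost without dex 36 h replicate 1 or dex 2 h replicate 1, 3 or 4. In DMSO the ratios were -3.41, -3.23, -3.37 and -3.56 at 36 h and -0.15, -0.07, 0.02 and 0.35 at 2 h. The dex effect on Mogat1 was 4.19 ± 0.14 at 36 h (adjusted p = 5.73e-11) and 0.07 ± 0.14 at 2 h. Its change of 4.13 ± 0.20 was the largest of the 120 genes, and in DMSO the difference between times was -3.43 ± 0.14.

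Lgals3, the galactose-binding lectin galectin-3, was at 1.12, 0.86, 1.62 and 0.82 in dex 36 h and at 0.17, -0.22, 0.08 and 0.22 in dex 2 h (1.05 ± 0.17, adjusted p = 0.00558). Polq, a DNA polymerase of end-joining repair, differed by 1.14 ± 0.16 on the quoted probe and by 0.0605 on the other. Ear6, a ribonuclease of the eosinophil-associated family whose members have near-identical copies, was 1.25 ± 0.25 higher, and Cdh15, a cadherin known from muscle, 1.01 ± 0.24. The call for Cdh15 was lost without dex 36 h replicate 1, 2 or 3 or any 1 of the dex 2 h arrays, and that for Ear6 without dex 36 h replicate 1 or 3. For Ear6 and Cdh15, dex 2 h replicate 2 was far below the other 3 arrays, at -1.20 and -1.06. Gja1, the gap junction protein connexin 43, was at 0.95, 0.20, 1.04 and 0.04 in dex 36 h and at -0.41, -1.06, -0.37 and -0.40 in dex 2 h (1.12 ± 0.21, adjusted p = 0.0154, lost without dex 36 h replicate 1). The dex effect on Gja1 was 1.07 ± 0.21 at 36 h and -0.60 ± 0.21 at 2 h. The 2 h value was beyond the limit of 0.5, so Gja1 was not among the genes that differed only later.

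Of 41 collagen and matrix genes, 1 was higher and 10 were lower at 36 h than at 2 h under dex, with a median of -0.18, where 1.02% and 1.34% of all genes passed higher and lower. All but 1 of these 11 also passed for the change of the dex effect. Besides Col12a1 and Postn the lower ones included the adhesion modulators Tnc (-0.86 ± 0.08) and Thbs1 (-0.83 ± 0.10) and the fibril-binding proteoglycan Lum (-0.82 ± 0.14). The higher one was Col4a1, a basement membrane collagen (0.51 ± 0.09). Col1a1, the main fibrillar collagen, had a ratio difference of -0.08 ± 0.10 under dex and a dex effect of -0.72 ± 0.10 at 36 h and 0.05 ± 0.10 at 2 h. For the change of the dex effect the list had 5 genes higher and 11 lower, where 3.37% of all genes passed, 2.08% higher and 1.29% lower. In bulk RNA, fewer cells of a type and less RNA per cell cannot be told apart.

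Of 23 contractile and actin cytoskeleton genes, 0 were higher and 2 lower under dex, Acta2 and Tpm1, with a median of -0.11. Of all genes 1.02% were higher and 1.34% lower. At an unadjusted p under 0.05, 10 of the 23 were lower and 0 higher, where 3317 of all 19640 genes passed in either direction. Against DMSO at 36 h 11 of them were lower and 1 higher, where 11.5% of all genes passed, 6.71% higher and 4.81% lower. Among 9 fibroblast and preadipocyte identity markers, 5 were lower and 0 higher with dex than with DMSO at 36 h, with a median effect of -0.52. For the change of the dex effect 1 was lower, where 1.29% of all genes were. In the ratio, 0 of the 9 passed between dex 36 h and dex 2 h (1 at an unadjusted p under 0.05), and Dlk1, the preadipocyte protein Pref-1, had a difference of -0.18 ± 0.17.

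Of 43 glucocorticoid receptor target genes, 34 passed as higher with dex at 36 h and 1 as lower, where 6.71% and 4.81% of all genes did. Between the times under dex 2 were higher and 3 lower in limma, with a median of -0.06, where 1.02% and 1.34% of all genes were. The higher ones were Angptl4 and Anxa1, an anti-inflammatory annexin (0.65 ± 0.09), and the lower ones Sox4, Gadd45g and the cell cycle inhibitor Cdkn1a (-0.40 ± 0.08). The effect of dex on Cdkn1a was 0.69 ± 0.08 at 36 h and 0.85 ± 0.08 at 2 h. For the change of the dex effect 6 targets were higher and 3 lower, where 2.08% and 1.29% of all genes were.

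The next counts under dex stand beside the 1.02% of all genes that were higher and the 1.34% that were lower. Of 37 chemokine, cytokine and NF-kappaB target genes 3 were higher under dex, Ccl7, Ccl2 and Irf1, an interferon regulatory factor (0.69 ± 0.10), and 2 were lower. Of the lower ones, Vcam1, an adhesion molecule for leukocytes, was at -0.67, -0.96, -0.93 and -0.84 in dex 36 h and 0.01, 0.10, 0.04 and 0.03 in dex 2 h (-0.89 ± 0.09, adjusted p = 2.74e-04). Vcam1 had a dex effect of -1.20 ± 0.09 at 36 h and 0.01 ± 0.09 at 2 h. Among 35 immediate early genes 2 were higher (Plk2 and the phosphatase Dusp4, 0.59 ± 0.14) and 3 lower, and among 17 circadian clock genes 1 was lower, the repressor Nfil3 (-0.56 ± 0.14, adjusted p = 0.0488). The call for Nfil3 was likewise lost without any 1 of the dex arrays, and its change of the dex effect, -0.52 ± 0.19, did not pass. Of 19 interferon response genes 2 were lower, Oasl2 (-0.47 ± 0.09) and the tetherin gene Bst2 (-0.40 ± 0.09, lost without any 1 of the dex arrays), but neither passed for the change of the dex effect.

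**Figure D5:**
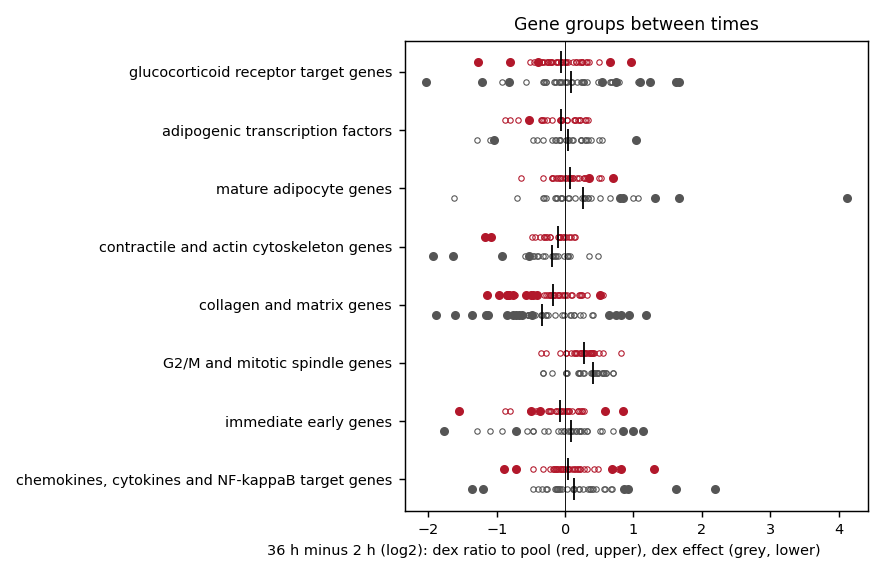
For 8 gene groups, each circle is 1 gene, red in the upper row for dex 36 h minus dex 2 h as a log2 ratio to the pool and grey in the lower row for the change of the dex effect between 36 h and 2 h; filled circles passed and black ticks mark medians. Collagen and matrix genes have 10 filled red circles below 0 and 1 above, and G2/M genes have none.

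Of 30 mature adipocyte genes, 11 were higher and 0 lower with dex than with DMSO at 36 h, where 6.71% of all genes were higher, and 5 were higher and 0 lower for the change of the dex effect, where 2.08% were. In the ratio between dex 36 h and dex 2 h, 2 were higher, against 1.02% of all genes, and 0 lower (median 0.071). These were Mogat1 and Lpl, which encodes lipoprotein lipase. Lpl was at 0.12, 0.05, -0.01 and 0.01 in dex 36 h, against -0.31, -0.28, -0.29 and -0.32 in dex 2 h (0.34 ± 0.08, adjusted p = 0.0437, a call lost without any 1 of the 8 dex arrays), and its other probe gave -0.0441. Its dex effect was 0.34 ± 0.08 at 36 h and -0.47 ± 0.08 at 2 h, and both passed. Adipoq, the adipokine adiponectin, had a difference of -0.08 ± 0.08. Of 27 adipogenic transcription factors 0 were higher and 1 lower, Ebf1 (-0.53 ± 0.09), where 1.34% of all genes were lower. The other probe of Ebf1 gave 0.128, and its change of the dex effect, -0.47 ± 0.12 on the quoted probe, did not pass. Cebpa, which works beside Pparg in mature fat cells, was at -0.47 to 0.04 in dex 36 h and at -0.39 to -0.24 in dex 2 h.

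Pparg, the main regulator of fat cell formation, had a ratio difference of 0.31 ± 0.15 under dex (adjusted p = 0.397), and its dex effect was 0.82 ± 0.15 at 36 h and -0.22 ± 0.15 at 2 h (change 1.03 ± 0.21, adjusted p = 0.0148). Its other 2 probes had ratio differences of -0.227 and -0.0523, and 2 h effects of 0.00263 and 0.615, each pair in rising order. Of 33 preadipocyte markers and inhibitors of adipogenesis 2 were higher and 2 lower in the ratio under dex, where 1.02% and 1.34% of all genes were. Id4, an inhibitor of basic helix-loop-helix factors, was higher by 0.73 ± 0.12 and its relative Id2 lower by -0.71 ± 0.14 (adjusted p = 0.0191).

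The 4 dex 36 h replicates split by pairs for some of these genes. Fabp4, a fatty acid carrier, was at 1.57 and 1.66 in dex 36 h replicates 1 and 3 and at -0.07 and 0.31 in replicates 2 and 4, against 1.31, 0.53, 0.99 and 1.08 in dex 2 h (difference -0.11 ± 0.31, adjusted p = 0.937). Pparg was at 0.51 and 0.69 in replicates 1 and 3 and at -0.08 and 0.06 in replicates 2 and 4. Hsd11b1, the enzyme that regenerates active glucocorticoid, was at 0.72 and 0.65 in the first pair and at -0.01 and 0.14 in the other. Across probes replicates 1 and 3 correlated with r = 0.794, against 0.16 for replicates 2 and 3.

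The same arrays differed in cell cycle genes. The median ratio of 31 G2/M and mitotic spindle genes was 0.39 and 0.59 in dex 36 h replicates 1 and 3, and 0.027 and 0.017 in replicates 2 and 4, against -0.075 to 0.056 in dex 2 h. For 22 cholesterol and fatty acid synthesis genes the medians were 0.27 and 0.36 in the first pair and -0.045 and -0.067 in the other. None of the 31 G2/M genes passed between dex 36 h and dex 2 h (0 in limma, 9 higher and 2 lower at an unadjusted p under 0.05, median 0.27), nor did any of the 32 G1/S genes (0, with 6 higher and 2 lower unadjusted) or of the 22 lipid synthesis genes (0, with 3 higher and 4 lower unadjusted). Of all 19640 genes, 3317 had an unadjusted p under 0.05 in either direction. Ccnd1, the G1 cyclin D1, was at 0.12, 0.69, 0.22 and 0.57 in dex 36 h replicates 1 to 4, with the higher values in replicates 2 and 4. The part of this split in the results was not tested.

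Counts for the remaining lists under dex are given beside the 1.02% of all genes that were higher and the 1.34% that were lower. Of 22 cyclin-dependent kinase inhibitor and quiescence genes 3 were higher and 4 lower, the lower ones including Gas2, a growth arrest gene (-0.68 ± 0.13, other probe 0.0763). Of 24 metallothionein and antioxidant genes 2 were higher, the selenium carrier Selenop (0.49 ± 0.09) and the heme-degrading enzyme Hmox1 (0.47 ± 0.08). Of 32 Wnt pathway genes 3 were higher, led by the Wnt-induced secreted protein gene Ccn4 (0.81 ± 0.11, other probe 0.527), and 2 lower. Of 30 TGF-beta and BMP pathway genes 1 was higher, the activin subunit gene Inhba (0.52 ± 0.11), and 1 lower, Fst. Of 24 insulin and IGF signalling genes 3 were lower, including Foxo3 and the kinase Akt2 (-0.47 ± 0.11, adjusted p = 0.0437, other 2 probes -0.282 and -0.044). Of 26 unfolded protein and heat shock genes 1 was higher and 3 lower, with the chaperone partner Dnajb1 at -0.84 ± 0.18 and the glutathione-degrading enzyme Chac1 at -0.67 ± 0.09. Of 11 receptor and steroid metabolism genes 0 passed (1 unadjusted), and of 14 cytosolic ribosomal protein genes 0 (1 unadjusted). An unadjusted p under 0.05 was reached by 3317 of all 19640 genes. The change of the dex effect did not pass for Ccn4, Inhba, Akt2 and Dnajb1. It passed for Gas2, Selenop, Hmox1, Fst, Foxo3 and Chac1.

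Markers of other cell types are given beside the 2.36% of all genes that passed under dex. Unadjusted counts stand beside the 3317 of all 19640 genes with an unadjusted p under 0.05. Of 10 macrophage markers 0 passed in limma (2 lower unadjusted, median ratio -0.13 to -0.05 over the dex 36 h arrays and 0.00012 to 0.19 over the dex 2 h arrays). Of 10 endothelial markers 0 passed (1 unadjusted), and of 12 skeletal muscle markers 0 (1 unadjusted). Of 10 epithelial markers 1 was higher, Krt8, a keratin (0.39 ± 0.08, adjusted p = 0.0189). Ratios to a pool cannot show whether any such marker was present or absent.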

How the data were processed

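RNA was measured on 16 2-colour arrays, each with its own sample (Cy5) beside pooled sample RNA (Cy3). The deposited values are log2 ratios, Cy5 over Cy3, made by the authors with limma, per the submitters' processing notes. The sources used here give neither the background correction, the normalization nor the log base. Base 2 was assumed, as limma writes it, and natural logs would scale every change by a constant. No further normalization was applied. Signal over background is unknown, so precision is limited by array number and noise. Of the values 131 were missing, all in dex 2 h replicates 2 to 4, and fits used the remaining arrays.

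Probes were named from the platform annotation, 760 naming several genes and 8251 none, and symbols were updated by Entrez identifier for 28735 probes from a RefSeq table of GRCm38.p6. limma 3.58.1 in R 4.3.3 fitted 4 group means over 16 arrays (lmFit, eBayes, 12 residual and 3.19 prior degrees of freedom), with Benjamini-Hochberg adjustment over 38467 probes. A gene is represented by its probe of smallest p in a moderated F test of the 4 groups. The fit was tested on simulated data. The replicates are called biological, and nothing more says that they were separate cultures. Errors of differences are SEs.

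Members and lists were chosen with earlier results of these data known. Named genes were the 8 largest changes each way with groups apart, the 5 largest early effects per ratio class, up to 6 late genes each way, the 2 largest passing genes per list and 21 always. Other genes in the text were chosen after their values were seen. The classes by dex effect and the check of the pool were chosen after seeing the data. Alternatives changed normalization, weights, arrays, probe choice, the replicate block and the class limits.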

Additional observations from a re-analysis of the deposited data

Results flagged for a closer look

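Of 134 groups of 4 dex arrays examined, those of 67 named genes at 36 h and at 2 h, 13 held 1 array far from the other 3, and chance alone marks about 1 in 20 groups. In dex 36 h, replicate 2 stood apart for Angptl4 (-0.605, nearest -0.184), Plk2 (-0.746, nearest -0.404) and Tsc22d3 (1.3, nearest 0.942). Replicate 3 did so for Fam221b (1.14, nearest 2.83) and Per1 (-0.171, nearest 0.185). Replicate 4 did so for Sfrp2 (-0.795, nearest -1.37) and Tent5b (0.323, nearest 0.971). In dex 2 h, replicate 2 stood apart for Ear6 (-1.20, nearest -0.0961), Gja1 (-1.06, nearest -0.414), Gadd45g (1.37, nearest 1.12) and Cdh15 (-1.06, nearest -0.205), and replicate 1 for Tent5b (0.566, nearest 1.02) and Angptl4 (-0.76, nearest -1.34). Replicate 2 thus held 4 of the 6 in dex 2 h, and it was also the array of that group with the largest residual SD, 0.384 against 0.194 to 0.241 for the others; its part in these values was not tested.

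For 41 of the 67 named genes the change between 36 h and 2 h differed between dex and DMSO, by a limma test of the difference itself at an adjusted p under 0.05. The log2 difference was positive for Mogat1 4.13, Cdh15 2.93, Polq 2.7, Lgals3 2.29, Ccl7 2.19, Ear6 1.91, Adcy3 1.77 and Gja1 1.67. It was also above 0, with smaller values, for Lcn2 1.62, Cxxc5 1.29, Id4 1.27, Angptl4 1.24, Selenop 1.23, Pparg 1.03, Plk2 0.99 and Ccl2 0.918. The remaining positive values were Ccnd1 0.871, Lpl 0.808, Fkbp5 0.744 and Hmox1 0.623. It was most negative for A630052E07Rik -3.2, Sox4 -2.04, Acta2 -1.94, Col12a1 -1.9, Serpinb3a -1.87, Tcim -1.86, Egr1 -1.77 and Sycp2 -1.64. Values below 0 followed for Tpm1 -1.64, Postn -1.62, Sfrp2 -1.39, Fst -1.35, Basp1 -1.26, Gadd45g -1.22, Vcam1 -1.21 and Dok1 -1.07. The remaining negative values were Foxo3 -0.957, Id2 -0.889, Gas2 -0.84, Col1a1 -0.77 and Chac1 -0.549. In these differences the pool cancels, and they equal the change of the dex effect.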

How the results depend on the processing

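None of the 45 named genes that passed changed direction in any setting. The dex course had 200 genes higher and 263 lower, 110 and 136 from its 8 arrays alone, 1591 and 1993 with array weights, and 323 and 447 after quantile normalization. Likewise the DMSO course had 243 genes (93 from 8 arrays, 461 weighted, 697 quantile), the difference of the courses 662 (1732 weighted, 1342 quantile), the 2 h effect 613 (284 from 8 arrays) and the 36 h effect 2262 (4215 from 8 arrays, 8470 weighted, 4175 quantile, 1015 by log-odds). Early genes by ratio, 0 grown, 41 held, 32 faded and 58 unresolved, became 14 grown, 74 faded and 34 unresolved with weights, 1 grown and 27 held after quantile normalization, and 37 unresolved with the mean of a gene's probes. They became 4, 176, 81 and 113 with a 1.5-fold minimum, and 15 held with a 1.3-fold limit. By dex effect, weights gave 86 faded for 43, quantile normalization 6 held for 14 and the mean of probes 6 grown for 13. Late genes by ratio, 4 higher and 9 lower, became 7 higher with weights, 22 lower after quantile normalization, 4 lower with the mean of probes, and 35 and 42 with a 1.5-fold minimum. Late genes by dex effect, 38 lower, became 91 after quantile normalization. The weights were chosen by the fit from the arrays' noise, and the cause of these shifts was not tested.

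Leaving out 1 array at a time gave 69 to 316 genes higher and 93 to 483 lower in the dex course, fewest without dex 36 h replicate 1 and most without DMSO 2 h replicates 1 and 4. The ranges were 117 to 478 for the DMSO course, 446 to 867 for the difference, 467 to 727 for the 2 h effect and 1271 to 2978 for the 36 h effect. By ratio 0 to 2 grew, 35 to 48 held, 21 to 51 faded (fewest without dex 36 h replicate 1, most without DMSO 2 h replicate 1) and 40 to 72 were unresolved. Late genes by ratio were 1 to 8 higher and 7 to 11 lower, with 1 higher without dex 36 h replicate 3 and 8 without replicate 4. By dex effect 8 to 14 grew (8 without dex 2 h replicate 3), 12 to 19 held, 36 to 57 faded, 52 to 70 were unresolved, and late genes were 72 to 87 higher and 31 to 43 lower.

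Same-numbered dex arrays deviated together weakly (r = -0.0406 to 0.107), and nothing in the labels ties the numbers across groups. With the replicate number as a block, 136 genes were higher and 193 lower in the dex course, 0 early genes grew, 41 held, 29 faded and 60 were unresolved by ratio, and 10, 13, 39 and 68 by dex effect. Of the 45 named genes that passed in the dex course, 22 passed in every setting and 23 lost the call in at least 1. The block ended the calls for Akt2, Bst2, Cdh15, Lpl, Mogat1 and Nfil3. Leaving out an array ended these and those for Dnajb1, Ear6, Fst, Gas2, Gja1, Id2, Inhba, Oasl2, Sycp2 and Tcim. Quantile normalization ended those for Akt2, Ccl2, Cdh15, Dok1, Plk2 and Tcim, and the mean of a gene's probes those for Akt2, Ccn4, Ebf1, Foxo3, Gas2 and Lpl. Of the named genes that did not pass, 4 did with array weights, Cebpb, Cebpd, Hsd11b1 and Rhob.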

Other observations

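The genes given here were chosen after their values were seen and stand for no gene group. Agt, the precursor of angiotensin, had a dex effect of 1.68 ± 0.24 at 36 h and 0.02 ± 0.24 at 2 h (SE, n = 4 arrays per group, change 1.66 ± 0.34, limma adjusted p = 0.0155). Cd36, a fatty acid transporter of adipocytes, had 1.45 ± 0.17 at 36 h and 0.13 ± 0.17 at 2 h (change 1.32 ± 0.24, adjusted p = 0.00761). Neither passed between dex 36 h and dex 2 h in the ratio to the pool, with Agt at 0.49 ± 0.24 and Cd36 at 0.52 ± 0.17. Ptn, the growth factor pleiotrophin, had -1.89 ± 0.18 at 36 h and 0.15 ± 0.18 at 2 h, and its ratio difference under dex of -0.70 ± 0.18 did not pass either (adjusted p = 0.0607).

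Among early responses, Bhlhe40, a circadian repressor of the basic helix-loop-helix family, had an effect of -0.00 ± 0.14 at 36 h and -1.11 ± 0.14 at 2 h (change 1.10 ± 0.19, adjusted p = 0.00533). Klf5, a Krüppel-like factor of early adipogenesis, had 0.28 ± 0.18 at 36 h and 1.32 ± 0.18 at 2 h (change -1.04 ± 0.25, adjusted p = 0.0374). Plxdc1, a membrane protein first described in tumour vessels, had 4.11 ± 0.14 at 36 h and 1.93 ± 0.14 at 2 h (change 2.18 ± 0.19, adjusted p = 1.59e-05).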
